A study of Mus musculus with 6 samples.

Results

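The 36 genes described here are genes of macrophages, monocytes and neutrophils, chosen by name with earlier results of these data known. They were found by Ensembl identifier among the 50600 genes of a read count table. Their reads come from cardiac side population (SP) cells, heart cells that are sorted because they export a DNA-binding dye. The 6 RNA libraries comprise 3 of wild-type (wt) C57BL/6NRj mice and 3 of C57BL/6Flt3Ltml/mx mice on a C57BL/6N background, which are labelled flt3L-/-. Flt3L is the ligand of the receptor tyrosine kinase Flt3 and a growth factor of early blood cells and dendritic cells. All mice were young adults with no treatment named, each library pooled the sorted cells of 4 hearts, and cardiomyocytes, erythrocytes and dead cells had been depleted beforehand. A wt and an flt3L-/- sort were made on each of 3 dates, 22 August 2016, 24 August 2016 and 29 August 2017, and the libraries of these dates are called pairs 1, 2 and 3. The sources describe sorting of the complete SP or of its Sca1+/CD31- cells, name freshly isolated SP cells for the sequencing, and mention no removal of CD45+ leukocytes before it. Levels are CPM, the counts of a gene scaled to a common library size. Flt3l itself, the targeted gene, had 13.6, 12.4 and 14.4 CPM in the flt3L-/- libraries of pairs 1, 2 and 3, no fewer than the 8.67, 10.8 and 12.1 CPM of wt. Reads of the targeted gene were thus not lower under the flt3L-/- label, and which part of the gene is deleted cannot be read from counts per gene, so the groups are named here by their labels.

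Myeloid cells are innate immune cells that include granulocytes, monocytes and macrophages. Neutrophils are short-lived granulocytes of the blood that enter tissue within hours, monocytes circulate and can become macrophages, and the healthy heart holds resident macrophages between its muscle cells, many of them of embryonic origin. Neutrophils carry large amounts of the calcium-binding proteins S100a8 and S100a9, and macrophages and monocytes are rich in lysozyme, Fc receptors and the enzymes of phagocytosis.

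The levels of most of these genes differed together between libraries, in opposite directions in different pairs. In pair 1 the library labelled flt3L-/- had the higher level of all 36, in pair 3 the wt library had the higher level of most, and in pair 2 the libraries were closer. The lowest libraries for most members were wt of pair 1 and flt3L-/- of pair 3, 1 of each label. The 3 widest differences of pair 1 were those of the neutrophil genes Retnlg, S100a9 and S100a8, and the ratio of neutrophil to macrophage and monocyte genes differed between libraries as well. These words describe levels in single libraries. In edgeR's test across all genes, 0 members were called by genotype and 0 by sorting date, beside 0% of all genes tested. DESeq2 called 1 member, Cebpa, by date, beside 2.99% of all genes tested.

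Because the neutrophil genes and the lysozymes were among those with the widest ranges between libraries, their promoters are shown first, as the 250 bases before the start of the RefSeq transcript on the gene's own strand, from 5′ to 3′, in build GRCm38.p6. Capitals mark matches, on either strand, to 3 short motifs that were searched: GAGGAA, the core bound by ETS factors, GAGGAAGT, a longer form for PU.1 that contains this core, and TTGCNNAA for C/EBP factors. PU.1, encoded by Spi1, and the C/EBP proteins are the classical transcription factors of myeloid cells. The windows are chr3:90668821-90669070, plus strand (S100a8), chr3:90695722-90695971, minus strand (S100a9), chr16:48872358-48872607, plus strand (Retnlg), chr4:126024409-126024658, plus strand (Csf3r), chr10:117282273-117282522, minus strand (Lyz2) and chr10:117292869-117293118, minus strand (Lyz1).
S100a8: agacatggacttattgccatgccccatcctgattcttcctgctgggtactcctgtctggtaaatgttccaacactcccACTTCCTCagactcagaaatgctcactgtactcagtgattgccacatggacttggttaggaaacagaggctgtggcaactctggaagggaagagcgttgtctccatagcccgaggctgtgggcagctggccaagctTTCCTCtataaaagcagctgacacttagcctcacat
S100a9: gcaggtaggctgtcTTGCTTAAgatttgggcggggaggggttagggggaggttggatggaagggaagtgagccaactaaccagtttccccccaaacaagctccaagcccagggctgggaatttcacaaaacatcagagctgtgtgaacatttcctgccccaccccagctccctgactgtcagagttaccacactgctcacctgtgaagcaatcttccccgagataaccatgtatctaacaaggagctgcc
Retnlg: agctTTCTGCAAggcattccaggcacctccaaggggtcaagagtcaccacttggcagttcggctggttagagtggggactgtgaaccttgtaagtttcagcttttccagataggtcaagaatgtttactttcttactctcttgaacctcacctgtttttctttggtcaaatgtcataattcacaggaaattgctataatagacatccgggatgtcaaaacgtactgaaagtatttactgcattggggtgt
Csf3r: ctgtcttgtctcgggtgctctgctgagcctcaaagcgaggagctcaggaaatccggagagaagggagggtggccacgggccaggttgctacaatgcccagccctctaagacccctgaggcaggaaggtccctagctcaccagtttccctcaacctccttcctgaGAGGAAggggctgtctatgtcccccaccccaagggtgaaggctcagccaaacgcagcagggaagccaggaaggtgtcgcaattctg
Lyz2: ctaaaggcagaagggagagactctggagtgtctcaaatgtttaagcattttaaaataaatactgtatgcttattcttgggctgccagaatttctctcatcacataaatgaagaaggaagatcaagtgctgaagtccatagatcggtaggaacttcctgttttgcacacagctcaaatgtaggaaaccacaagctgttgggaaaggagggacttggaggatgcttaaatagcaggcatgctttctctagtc
Lyz1: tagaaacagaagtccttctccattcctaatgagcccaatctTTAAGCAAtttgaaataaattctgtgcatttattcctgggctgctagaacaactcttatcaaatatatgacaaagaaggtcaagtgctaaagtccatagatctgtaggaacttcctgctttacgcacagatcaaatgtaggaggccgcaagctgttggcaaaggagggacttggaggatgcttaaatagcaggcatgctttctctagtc

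RefSeq promoters were matched for 30 of the 36 genes. GAGGAA was found in 15 of the 30, or 50%, against 25.9% of 27025 promoters of all genes. GAGGAAGT was found in 3 of the 30 (10%), those of S100a8, Ly6c2 and Fcgr4, against 2.79% of all promoters. TTGCNNAA was found in 7 of the 30 (23.3%), among them S100a9, Retnlg and Lyz1, against 10.8%. The Lyz2 window held none of the 3, while the aligned windows of Lyz1 and Lyz2 were identical at 79.4% of positions. These matches are descriptions of letters, and no binding was measured.

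Total counts per library lay between 24370913 and 31145519. A count of 3, taken as the floor of detection, corresponds to 0.109 to 0.127 CPM, and this floor covers counting error only because reads without molecular identifiers are not independent molecules. All CPM values are scaled with edgeR's TMM factors, and CPM is not corrected for gene length. The libraries are separate pools of mice sorted on separate dates, so the spread between pairs contains both animals and sorting dates, which cannot be told apart. In such mixed samples, fewer cells of a type and less RNA per cell cannot be told apart either.

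S100a8 and S100a9, which lie near each other on chromosome 3 (90668978 to 90670035 and 90692632 to 90695721), encode the subunits of calprotectin, the main cytosolic protein of neutrophils. S100a8 (ENSMUSG00000056054) had 0.233, 14.4 and 12.8 CPM in the wt libraries of pairs 1, 2 and 3, and 23.8, 36.7 and 0.594 CPM in those labelled flt3L-/-. S100a9 (ENSMUSG00000056071) had 0.428, 29.3 and 24.3 CPM in wt, and 45.1, 74.6 and 1.74 CPM in those labelled flt3L-/-. Both genes were lowest in wt of pair 1, next lowest in flt3L-/- of pair 3 and highest in flt3L-/- of pair 2, and the groups overlapped. The highest library exceeded the lowest 157-fold for S100a8 and 174-fold for S100a9. S100a8 kept to between 34.1 and 54.6 CPM per 100 CPM of S100a9 in all 6 libraries.

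Retnlg (ENSMUSG00000022651, chromosome 16, 48872621 to 48874496) encodes resistin-like gamma, a secreted protein of neutrophils. It had 0, 5.59 and 3.91 CPM in wt of pairs 1, 2 and 3, and 15.6, 8.61 and 0.237 CPM in those labelled flt3L-/-. The wt library of pair 1 had 0 reads of it, which allows up to 0.117 CPM. Csf3r (ENSMUSG00000028859, chromosome 4, 126024550 to 126044440), the receptor of granulocyte colony-stimulating factor, had 1.17, 44.2 and 38.9 CPM in wt, and 37.6, 84.1 and 3.36 CPM in those labelled flt3L-/-. All 4 neutrophil genes thus had the same 2 lowest libraries, wt of pair 1 and flt3L-/- of pair 3.

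**Figure D1:**
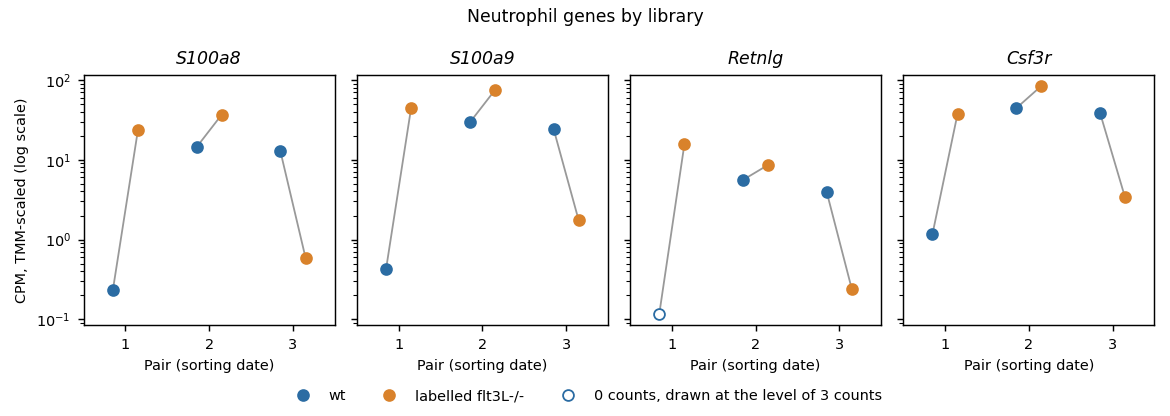
Levels of the 4 neutrophil genes in each library, as TMM-scaled CPM on a log axis, with 1 panel per gene, 1 point per library and lines joining the libraries of a sorting date. The open point is Retnlg in wt of pair 1 (0 counts), drawn at the level of 3 counts. Each line slopes steeply up in pair 1, less so in pair 2, and down in pair 3.

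Within pairs, the log2 difference of flt3L-/- minus wt (computed with a prior count of 2) was 6.26, 1.35 and -4.26 for S100a8 and 6.48, 1.35 and -3.75 for S100a9. For Csf3r it was 4.92, 0.93 and -3.5. Over the 4 neutrophil genes the median was 6.37 in pair 1, 1.14 in pair 2 and -3.70 in pair 3, and the value of pair 1 was 6.37 also with Retnlg held at the bound given by 3 counts. Over all 13475 genes tested, the medians were 0.04, 0.00 and 0.01. In edgeR's quasi-likelihood test the log2 fold changes of the 4 genes between genotypes were 0.82 to 1.28, with standard errors of 1.95 to 2.60 and Benjamini-Hochberg adjusted p between 0.977 and 0.984. The standard errors exceeded the fold changes, so no difference by genotype was detectable.

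The related lectins Clec4d and Clec4e, sensors of microbial glycolipids on neutrophils and monocytes, and the inflammatory cytokine gene Il1b are used by both cell types. Clec4d had 0, 3.34 and 4.13 CPM in wt of pairs 1, 2 and 3, and 4.04, 8.23 and 0.0792 CPM in those labelled flt3L-/-. Clec4e had 0.739, 20.1 and 35.5 CPM in wt, against 12.7, 36.6 and 1.90 CPM. Il1b had 0.194, 2.25 and 3.31 CPM in wt, against 0.983, 2.16 and 0.0396 CPM. The same pair of libraries was again the lowest, and Il1b in flt3L-/- of pair 3 rested on 1 read and Clec4d on 2.

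A list of 26 other neutrophil genes, not among the 36, showed how far this extended. Their summed level was 9.45, 164 and 395 CPM in wt of pairs 1, 2 and 3 and 157, 252 and 15.9 CPM in those labelled flt3L-/-. In 18 of the 26 the flt3L-/- library was more than 2-fold higher in pair 1, and in 19 it was more than 2-fold lower in pair 3. Over all genes tested, which passed a filter on low counts, these shares were 4.34% and 10.6%. The 26 were counted without that filter, and some rest on few reads, such as Prtn3 (0 in wt and 4 in flt3L-/- of pair 1). The most abundant were Chil3, a chitinase-like secreted protein that monocytes also make, Il1r2, the decoy receptor of interleukin-1, and Mmp8, neutrophil collagenase. Mmp8 had 0.0777, 16.1 and 48.0 CPM in wt, against 42.8, 30.0 and 1.74 CPM. Of the 26, 14 passed the filter on low counts, and Stfa3 had 0 reads in all libraries. By genotype or date, edgeR called 0 of these 14, beside 0% of all genes tested. Some granule genes of immature neutrophils in that list (Mpo, Elane, Prtn3, Ctsg, Camp, Ltf and Ngp, grouped after their values were seen) summed to between 0.554 and 5.59 CPM. Of these 7, 1 passed the filter, and Ngp alone gave 2.52 of the 5.59 CPM, in wt of pair 2. Lcn2, of the same list but outside this group, had 1.555, 4.89 and 5.74 CPM in wt, against 7.21, 7.72 and 0.831 CPM.

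Lysozyme, which cleaves bacterial cell walls, is encoded by Lyz2 and Lyz1, and Lyz2 had the highest mean CPM of the 36 genes. Ly6c2 and Mertk were nevertheless above it in wt of pair 1 and in flt3L-/- of pair 3, and Laptm5 was above it in wt of pair 1. Lyz2 (ENSMUSG00000069516, chromosome 10, 117277331 to 117282321) had 17.1, 507 and 1527 CPM in wt of pairs 1, 2 and 3, and 246, 844 and 67.4 CPM in those labelled flt3L-/-. Its neighbour and close relative Lyz1 (ENSMUSG00000069515, 117287797 to 117292868) had 0.272, 16.0 and 50.7 CPM in wt, against 7.87, 30.0 and 3.33 CPM. Both were lowest in wt of pair 1, next in flt3L-/- of pair 3, and highest in wt of pair 3, so the groups overlapped across their whole range. The wt libraries alone differed 89.1-fold in Lyz2. Of the 81-base windows of Lyz2 transcripts, 5.02% also occur in Lyz1, and 5.24% of those of Lyz1 occur in Lyz2. The log2 differences within pairs were 3.83, 0.74 and -4.50 for Lyz2, and its log2 fold change by genotype was 0.41 with a standard error of 2.01 (edgeR, adjusted p = 0.989).

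Genes of the macrophage surface and lysosome divided into those that followed Lyz2 and those that did not. Adgre1, which encodes the macrophage marker F4/80, had 0.467, 4.50 and 13.4 CPM in wt of pairs 1, 2 and 3, and 2.0, 6.83 and 1.5 CPM in those labelled flt3L-/-. Cd68, a lysosomal membrane protein, had 4.82, 15.2 and 33.5 CPM in wt, against 8.45, 22.1 and 5.22 CPM. Ctss, the lysosomal protease cathepsin S, had 1.63, 33.5 and 92.3 CPM in wt, against 13.9, 45.4 and 4.16 CPM. These 3 genes had the order of libraries seen for Lyz2 at its ends, with wt of pair 1 lowest and wt of pair 3 highest.

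Trem2, a lipid receptor of macrophages, had 0, 1.24 and 1.86 CPM in wt, against 0.401, 0.721 and 0.396 CPM. Ms4a7, a membrane protein of macrophages, had 0.0777, 0.737 and 1.04 CPM in wt, against 0.182, 0.509 and 0.356 CPM, and it is the only member that did not pass the filter on low counts. Both genes were at or under 0.401 CPM in 3 of the 6 libraries.

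Mrc1 and Cd163 are scavenger receptors typical of resident tissue macrophages. Mrc1 had 0, 2.75 and 1.6 CPM in wt of pairs 1, 2 and 3, and 1.09, 4.20 and 0.950 CPM in those labelled flt3L-/-. Its lowest libraries were those of most members, with a smaller difference in pair 3 (-0.71 on the log2 scale). Cd163 had 0.272, 2.79 and 0.968 CPM in wt, against 0.291, 2.21 and 1.07 CPM. Within each date the Cd163 values of wt and flt3L-/- lay close together, while the dates differed, with pair 2 highest and pair 1 lowest. The date test gave Cd163 an unadjusted p of 0.00748 and an adjusted p of 0.598 in edgeR. The sum of C1qa, C1qb, C1qc, Cd163 and Mrc1, grouped after their values were seen, was 1.52, 18.0 and 9.72 CPM in wt and 2.51, 22.2 and 9.50 CPM in those labelled flt3L-/-, and so had the same order by date. Other macrophage genes did not share this order. Among the flt3L-/- libraries, Mrc1 by itself was lowest in pair 3, as was Lyve1 (19.6, 21.7 and 6.41 CPM), which is not restricted to macrophages. Folr2 was highest in flt3L-/- of pair 3, at 1.74 CPM, but it did not pass the filter on low counts. Of its exon length, 63.1% overlaps Gm10602. C1qa, C1qb and C1qc encode the complement protein C1q, which tissue macrophages make.

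Mertk, a receptor for the uptake of dying cells, was the steadiest of the 36. It had 64.4, 74.2 and 77.8 CPM in wt, and 98.8, 52.9 and 111 CPM in those labelled flt3L-/-, a 2.10-fold range. Its highest library was flt3L-/- of pair 3, in which most other members were low. Mertk is not restricted to macrophages.

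**Figure D2:**
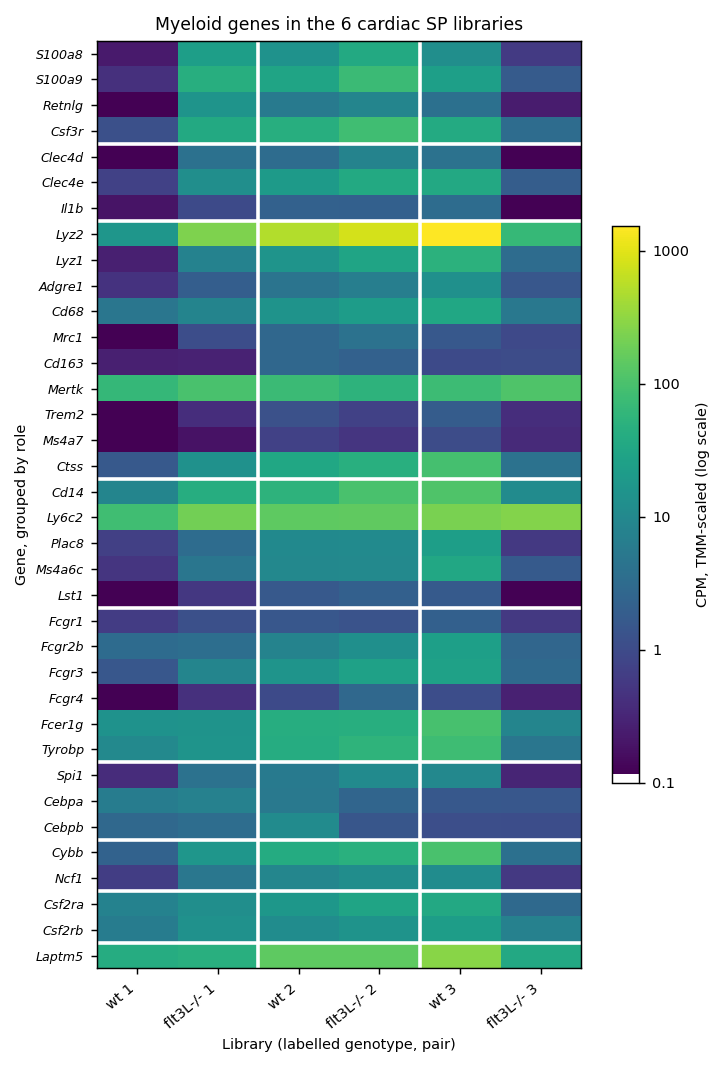
Levels of the 36 genes (rows, grouped by role) in the 6 libraries (columns, ordered by pair), as TMM-scaled CPM with a log colour scale; values under the level of 3 counts are drawn at that level. Most rows are dark in wt of pair 1 and in flt3L-/- of pair 3, while Mertk and Ly6c2 are bright in all libraries and Cebpa and Cebpb fade in the later ones.

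Of the monocyte genes, Cd14, the co-receptor for bacterial lipopolysaccharide, had 8.82, 53.3 and 113 CPM in wt of pairs 1, 2 and 3, and 43.3, 101 and 11.4 CPM in those labelled flt3L-/-. Plac8, Ms4a6c and Lst1, which are abundant in blood monocytes, took the same 2 lowest libraries. Plac8 ranged from 0.554 to 23.5 CPM, Ms4a6c from 0.505 to 34.6 CPM and Lst1 from 0.0389 to 2.12 CPM. For Ms4a6c, 47.3% of the 81-base windows also occur in transcripts of other genes, mainly BE692007, and its level is uncertain to that extent.

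Ly6c2, one of the paired genes for the monocyte surface antigen Ly6C, departed from the other monocyte genes. It had 84.2, 146 and 231 CPM in wt, and 201, 152 and 268 CPM in those labelled flt3L-/-, and the libraries labelled flt3L-/- were higher in 3 of 3 pairs. Among the members tested it had the smallest p by genotype, with a log2 fold change of 0.51, a standard error of 0.27 and an adjusted p of 0.973 in edgeR. Without pair 1 the log2 fold change was 0.14, and without pairs 2 or 3 it was 0.72 or 0.66. Its neighbour Ly6c1, which endothelial cells express, had 719, 1089 and 1623 CPM in wt, against 1718, 1180 and 2176 CPM. Ly6c2 stayed between 11.7 and 14.2 CPM per 100 CPM of Ly6c1. Of its 81-base windows, 8.59% occur in Ly6c1, and whether reads of Ly6c1 were counted on Ly6c2 was not tested.

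The Fc receptors bind the constant part of antibodies and trigger phagocytosis. The activating receptor Fcgr3 had 1.52, 15.5 and 26.4 CPM in wt of pairs 1, 2 and 3, and 8.85, 26.1 and 2.93 CPM in those labelled flt3L-/-. The inhibitory receptor Fcgr2b, which B cells also carry, had 3.19, 8.03 and 24.3 CPM in wt, against 3.57, 12.9 and 2.65 CPM. The high-affinity receptor Fcgr1 had 0.622, 1.51 and 2.16 CPM in wt, against 1.17, 1.32 and 0.554 CPM. Fcgr4, found on neutrophils and monocytes, had 0.117, 0.970 and 1.08 CPM in wt, against 0.437, 2.84 and 0.277 CPM, and was highest in flt3L-/- of pair 2, as most neutrophil genes were. Wt of pair 1 and flt3L-/- of pair 3 were the lowest libraries for all 4 receptors.

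Fcer1g and Tyrobp encode adaptors that carry the signal of activating receptors through an ITAM, a tyrosine motif, and NK cells use them too. Fcer1g had 14.5, 43.1 and 96.8 CPM in wt, and 14.9, 44.8 and 8.67 CPM in those labelled flt3L-/-. Tyrobp had 10.2, 41.6 and 81.9 CPM in wt, against 15.5, 56.0 and 4.87 CPM. In pair 1 the log2 difference was 0.04 for Fcer1g and 0.60 for Tyrobp, beside 2.49 for Fcgr3, and in pair 3 it was -3.47, -4.05 and -3.14. The summed level of 10 NK cell markers was 159, 287 and 605 CPM in wt and 81.5, 187 and 63.2 CPM in those labelled flt3L-/-, thus lower in flt3L-/- in all 3 pairs, and the part of NK cells in the adaptor genes was not tested. Laptm5, a lysosomal membrane protein of all blood cells, had 41.2, 146 and 284 CPM in wt, against 46.3, 146 and 35.0 CPM, close to the adaptors in its differences.

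Spi1, the gene of PU.1, had 0.389, 5.74 and 9.87 CPM in wt of pairs 1, 2 and 3, and 4.19, 11.1 and 0.317 CPM in those labelled flt3L-/-, and so followed the neutrophil and macrophage genes. Cebpa, a master factor of granulocyte and macrophage formation, did not. It had 6.34, 5.39 and 1.6 CPM in wt, and 7.61, 2.55 and 1.5 CPM in those labelled flt3L-/-. The order of its levels was that of the dates, high in pair 1 and low in pair 3, with an unadjusted p of 0.0164 and an adjusted p of 0.598 for the date in edgeR. In DESeq2 the adjusted p for the date was 0.0499, which made Cebpa the only member called in any comparison by that tool. DESeq2 called 2.99% of all genes tested by date. Cebpb, a factor of inflammatory gene induction, had 2.92, 11.3 and 1.12 CPM in wt, against 3.5, 1.49 and 1.11 CPM, with wt of pair 2 apart from the rest. Of the Cebpb windows, 16.4% occur in transcripts of Tmem189. Both C/EBP genes are expressed in many tissues.

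Cybb and Ncf1 encode a membrane and a cytosolic subunit of the phagocyte NADPH oxidase, which makes superoxide. Cybb had 2.33, 39.4 and 102 CPM in wt, and 16.7, 48.5 and 3.92 CPM in those labelled flt3L-/-. Ncf1 had 0.661, 9.08 and 11.5 CPM in wt, against 4.95, 12.1 and 0.554 CPM. Both had wt of pair 1 and flt3L-/- of pair 3 as their lowest libraries. Cyba, the membrane partner of Cybb, is made by many cells and had 68.5 to 115 CPM.

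Csf2ra and Csf2rb encode the receptor chains of granulocyte-macrophage colony-stimulating factor, and the latter is shared with interleukin-3 and interleukin-5. Csf2ra had 7.70, 17.5 and 35.8 CPM in wt, and 12.5, 29.1 and 2.93 CPM in those labelled flt3L-/-. Csf2rb had 6.22, 11.9 and 22.7 CPM in wt, against 14.1, 15.2 and 7.44 CPM, a narrower range. Its relative Csf2rb2, which shares 6.36% of the Csf2rb windows, ranged from 4.78 to 12.7 CPM. Among 10 colony-stimulating factors and other receptors, edgeR called 0, beside 0% of all genes tested. Il3 had 0 reads, while Csf1, the growth factor of macrophages, had 244 to 401 CPM in all libraries.

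Per kilobase of exon, which allows genes to be compared, Lyz2 had the highest mean over the 6 libraries, 406 CPM per kb. Ly6c2 was nevertheless above it per kb in flt3L-/- of pair 3, and Ly6c2, Fcer1g, Tyrobp and Mertk were above it in wt of pair 1. Ly6c2 (65.8 CPM per kb), S100a9 (56.0), Tyrobp (52.5) and Fcer1g (42.5) followed. At the lower end stood Mrc1 (0.277 CPM per kb), Cd163 (0.232), Trem2 (0.156) and Ms4a7 (0.109). Neighbours in this order had ranges over libraries that overlapped, and all members but Mertk differed by more than 3-fold between their highest and lowest library.

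Over the 35 members that passed the filter (protein-coding, more than 1 CPM in at least 2 libraries), edgeR called 0 by genotype at an adjusted p under 0.05, and 0% of the 13475 genes tested were called. Their adjusted p values lay between 0.973 and 1.0. At an unadjusted p under 0.05 there were 484 genes and 0 members. DESeq2 called 0 members by genotype, beside 21 genes or 0.156% of all. The study's own edgeR fit, with the same filter and the date as covariate, did report genes called by genotype, and no member is among them. The cause of this difference from the edgeR fit made here was not tested. By sorting date, edgeR called 0 members and 0% of all genes, with 1116 genes and 2 members (Cd163 and Cebpa) at an unadjusted p under 0.05. DESeq2 called 1 member and 403 genes by date, or 2.99%. The ranges of the 3 wt and the 3 flt3L-/- libraries overlapped for all 36 members, and did not overlap for 6.45% of all genes tested.

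Counts of members past 2-fold within a pair describe single libraries, with no replicate check. The members were chosen with earlier results of these data known, so the shares of all genes beside them are descriptions only. In pair 1, 24 of 36 members were more than 2-fold higher in the flt3L-/- library (4.34% of all genes) and 0 more than 2-fold lower (6.68%). In pair 2 the counts were 4 higher (S100a8, S100a9, Clec4d and Fcgr4, against 1.89%) and 2 lower (Cebpa and Cebpb, 5.56% of the members, close to the 4.82% of all genes). In pair 3, 0 were higher (2.38%) and 30 were lower (10.6%). Both higher in pair 1 and lower in pair 3 were 22 of 36, against 1.94% of all genes. The median log2 difference over the 36 was 2.22, 0.43 and -3.49 in pairs 1, 2 and 3, and 2.06 in pair 1 with the 4 genes at 0 reads in wt held at the bound of 3 counts.

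**Figure D3:**
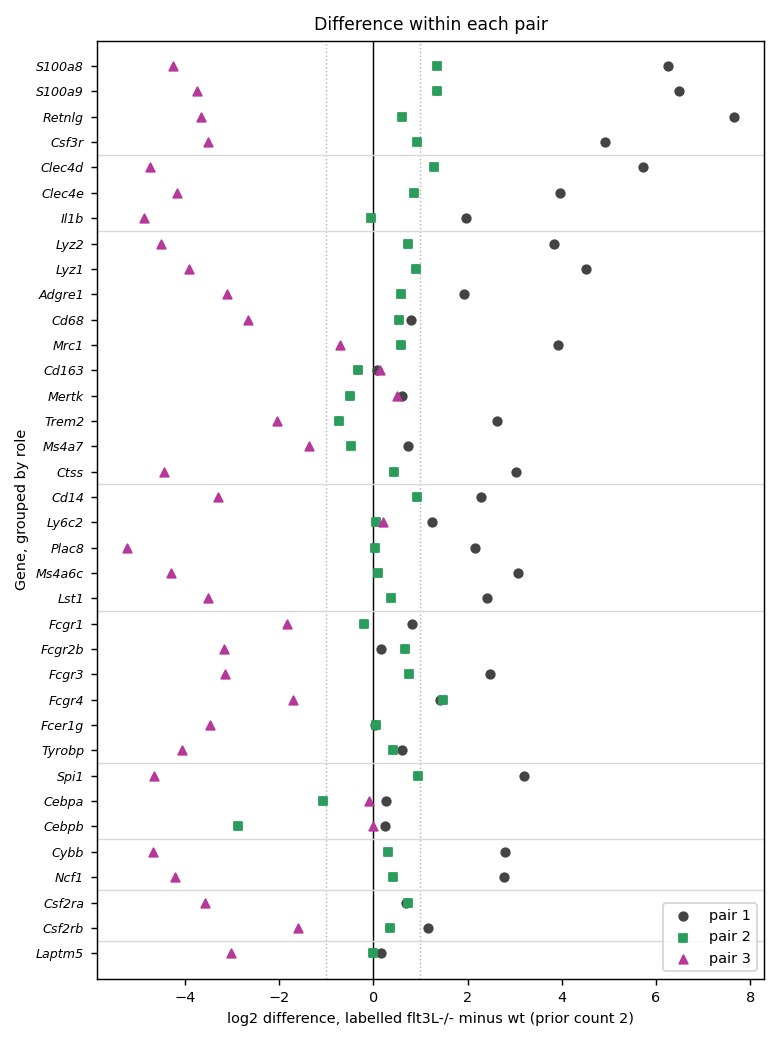
Log2 difference of the flt3L-/- minus the wt library in each pair (prior count 2) for the 36 genes, grouped by role, with dotted lines at 2-fold. Circles (pair 1) lie mostly to the right and triangles (pair 3) to the left, with medians of 2.22 and -3.49. The Retnlg, Clec4d, Mrc1 and Trem2 circles rest on 0 reads in wt.

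By the order of libraries, a grouping made after the values were seen, wt of pair 1 and flt3L-/- of pair 3 were the 2 lowest for 30 of 36 members, against 6.43% of all genes tested. The exceptions were Cd163, Mertk, Ms4a7, Ly6c2, Cebpa and Cebpb. The highest library was wt of pair 3 for 20 members (14.2% of all genes) and flt3L-/- of pair 2 for 10 (12.8%). Of the 4 neutrophil genes 0 were highest in wt of pair 3. S100a8, S100a9 and Csf3r were highest in flt3L-/- of pair 2, and Retnlg in flt3L-/- of pair 1.

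The 4 neutrophil genes are set apart here as sums. Their summed level was 1.83, 93.4 and 79.9 CPM in wt of pairs 1, 2 and 3, and 122, 204 and 5.94 CPM in those labelled flt3L-/-. The sum of the 29 macrophage and monocyte members, which are all members but the neutrophil genes, Clec4d, Clec4e and Il1b, was 281, 1236 and 2905 CPM in wt, against 786, 1695 and 549 CPM. This sum is a remainder and is not specific to macrophages and monocytes. It holds Fcgr4, found on neutrophils too, Fcer1g and Tyrobp, which NK cells use, and Laptm5 of all blood cells. Lyz2 alone gave 1527 of the 2905 CPM in wt of pair 3. Without Mertk and Ly6c2, left out after their values were seen, the sum was 133, 1016 and 2596 CPM, against 486, 1490 and 171 CPM. Per 100 CPM of that reduced sum, the neutrophil genes had 1.38, 9.20 and 3.08 CPM in wt and 25.1, 13.7 and 3.48 CPM in those labelled flt3L-/-. This ratio was thus highest in flt3L-/- of pair 1, lowest in wt of pair 1, and close between the libraries of pair 3. S100a9 alone had 2.49, 5.78 and 1.59 CPM per 100 CPM of Lyz2 in wt, against 18.4, 8.84 and 2.58 CPM. Both ratios were higher in flt3L-/- in 3 of 3 pairs, and no test was made of them. In pair 3 the direction depended on the genes chosen for either sum. With the 26 other neutrophil genes in place of the 4, the ratio to the reduced sum was 7.12, 16.1 and 15.2 in wt and 32.3, 16.9 and 9.34 in those labelled flt3L-/-, so that pair 3 turned. Chil3, which monocytes also make, gave 212 of the 395 CPM of those 26 genes in wt of pair 3. With Mertk and Ly6c2 in the sum, the neutrophil ratio of that pair was 2.75 in wt and 1.08 in flt3L-/-, and per 100 CPM of leukocyte markers it was 5.18 and 2.49.

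**Figure D4:**
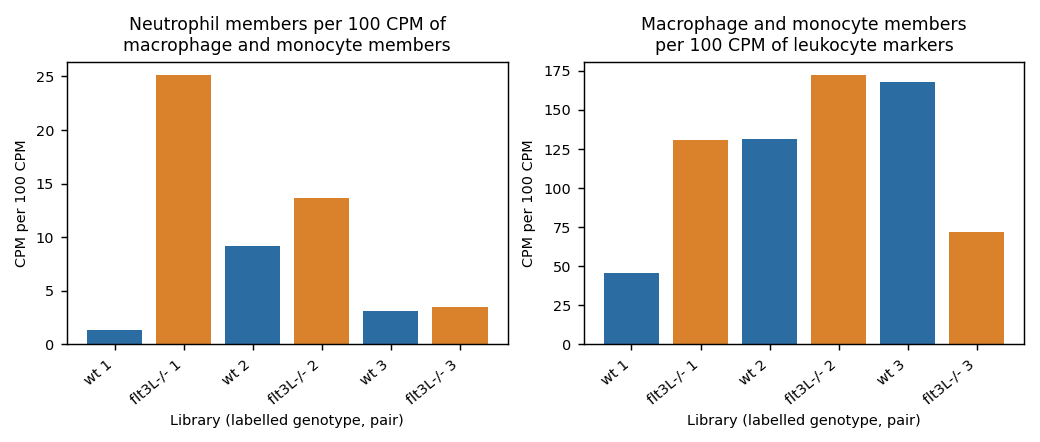
Left, summed CPM of the 4 neutrophil genes per 100 CPM of the macrophage and monocyte members without Mertk and Ly6c2; right, those members per 100 CPM of 10 leukocyte markers; 1 bar per library, no replicates. The left bars run from 1.38 (wt of pair 1) to 25.1 (flt3L-/- of pair 1), and the right bars from 45.4 to 172.

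Markers of other cells were read in the same libraries. The 10 general leukocyte markers, among them Ptprc, which encodes CD45, summed to 292, 775 and 1543 CPM in wt of pairs 1, 2 and 3 and to 372, 865 and 238 CPM in those labelled flt3L-/-. The 10 T cell markers summed to 35.8, 133 and 236 CPM, against 58.8, 198 and 65.2 CPM. The sum of the general markers was thus also lowest in wt of pair 1 and in flt3L-/- of pair 3, while the lowest T cell sums were those of both pair 1 libraries. The part of other leukocytes in the myeloid levels was not tested. In pair 1 the leukocyte sum differed 1.28-fold, the reduced macrophage and monocyte sum 3.66-fold and the neutrophil sum 66.8-fold. Per 100 CPM of leukocyte markers, the reduced macrophage and monocyte sum was 45.4, 131 and 168 CPM in wt, against 131, 172 and 71.7 CPM.

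B cell markers (8 genes) stayed between 1.20 and 3.54 CPM, and the 11 dendritic cell markers between 281 and 524 CPM, with the highest sum in flt3L-/- of pair 3. The dendritic cell list includes H2-Ab1, H2-Aa, H2-Eb1 and Cd74, which are not restricted to dendritic cells. Mast cell and basophil markers (8 genes) lay between 40.1 and 118 CPM. The 10 endothelial markers lay between 7486 and 9546 CPM, a 1.28-fold range, and the 10 fibroblast markers between 4307 CPM in flt3L-/- of pair 3 and 21680 CPM in wt of pair 1. The fibroblast sum was thus high in 1 of the libraries with few myeloid reads and low in the other. All of these markers had at least 1 read in some library. In every library the endothelial and the fibroblast sums exceeded that of the macrophage and monocyte members.

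**Figure D5:**
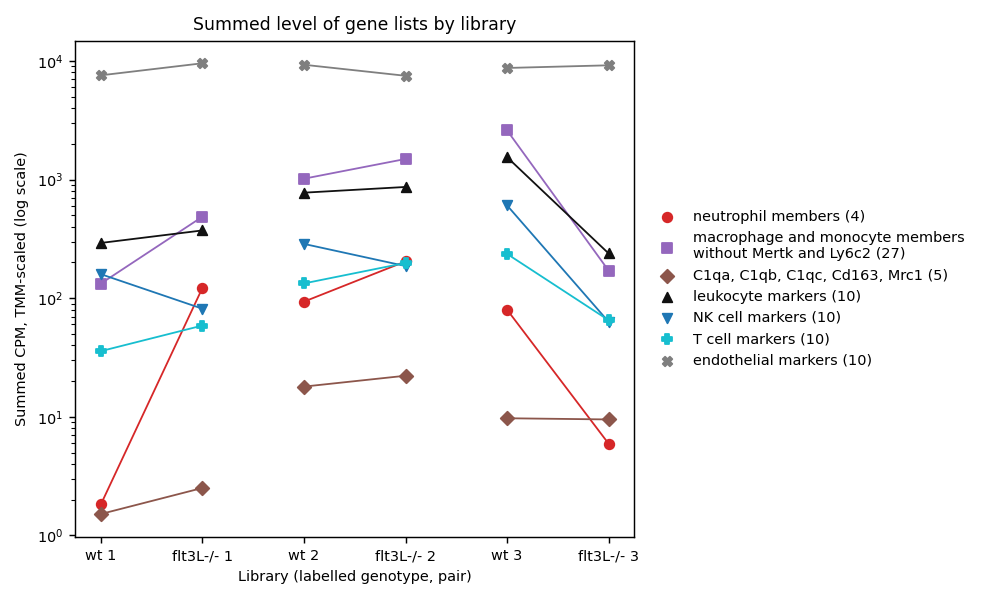
Summed TMM-scaled CPM (log axis) of gene lists in the 6 libraries, with the number of genes in parentheses and lines joining the libraries of a pair. The neutrophil sum moves from 1.83 to 122 CPM in pair 1 and from 79.9 to 5.94 CPM in pair 3, while the endothelial sum stays between 7486 and 9546 CPM.

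Lists of other myeloid genes gave 0 calls by genotype or date in edgeR, beside 0% of all genes tested. Of all genes tested, 4.34% were more than 2-fold higher in flt3L-/- in pair 1 and 10.6% more than 2-fold lower in pair 3. The lists were counted without the filter on low counts. Of 24 other macrophage genes, 7 were more than 2-fold higher in flt3L-/- in pair 1 and 12 more than 2-fold lower in pair 3. Among the most abundant of them, Apoe (apolipoprotein E) and Stab1 are also made by other cells, and Apoe had 1065 to 3507 CPM with its highest level in wt of pair 1. Of 12 other monocyte genes, 8 were higher in pair 1 and 11 lower in pair 3 by more than 2-fold, and the most abundant, Nr4a1, Ace and Itgal, are shared with endothelial cells or lymphocytes. Of 11 ITAM signalling genes 4 and 9 passed 2-fold in these directions. Of 10 other transcription factors of myeloid cells 0 and 4 did, and Cebpd and Klf4, among the most abundant, ranged from 201 to 462 and from 141 to 346 CPM.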

How the data were processed

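RNA of sorted cardiac SP cells was measured in 6 libraries, 3 wt and 3 labelled flt3L-/-, each from a pool of 4 mice. The authors deposited counts, the raw number of reads per Ensembl gene. Per the study's methods, single-end reads of 81 bases from unstranded libraries made with a SMART-Seq kit were mapped to mm10 with STAR 2.5.2a. Reads with equally good locations were placed at random among them, and reads starting in an exon were counted with QuasR, so overlapping genes and near copies can share reads. The share of 81-base windows in common with other genes was computed for each member from GENCODE transcripts.

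Groups were taken from the labels. Identifiers were matched to a GENCODE annotation of GRCm38, which held 50376 of 50600. Total counts were 24370913 to 31145519, and 3 counts (0.109 to 0.127 CPM) were taken as the limit of detection. Protein-coding genes above 1 CPM in at least 2 libraries were kept (13475 genes). Counts were scaled by TMM and tested in edgeR 4.0.16 on R 4.3.3 with glmQLFit and glmQLFTest (legacy = TRUE), with genotype and sorting date in the model. P-values were Benjamini-Hochberg adjusted over all genes tested and called under 0.05. With 2 residual degrees of freedom and 2.79 from the prior, the estimate of common dispersion came to 0.0978. Each standard error is the size of the fold change (log2) over the square root of its F value. A prior count of 2 was added for differences inside pairs.

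Pairs come from the sorting dates and from the methods, which state that each pair was processed on its own day. After removal of group means, libraries of the same date correlated at 0.180, 0.104 and 0.116 across genes, and those of different dates at -0.354 to 0.247. Wt of pair 2 correlated most with flt3L-/- of pair 1 (0.247), and wt of pair 3 with flt3L-/- of pair 2 (0.191). These correlations thus do not single out the pairs, which rest on the dates. The test was checked on simulated counts in which the genotype change of a gene was the same in all pairs. That check does not cover genes that differed in opposite directions between pairs. The members and all gene lists were chosen with earlier results of these data known. All 36 members were to be accounted for, with values in each library for the neutrophil, macrophage, Fc receptor and transcription factor lists and for the 3 smallest p-values. Near relatives, the 3 most abundant genes of each other list and the sums of marker lists were named beside them, and other names were added after values were seen. Some genes of these other lists are not reported here. Promoters were read from RefSeq (GRCm38.p6). Alternatives were DESeq2 size factors, library size only, DESeq2 1.42.0, legacy = FALSE, 2 other filters on low counts, all biotypes, no date in the model, and each pair left out.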

Additional observations from a re-analysis of the deposited data

How the results depend on the processing

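Limits are the 3 pairs and the 2 residual degrees of freedom, which leave the members' log2 fold changes with standard errors of 0.26 to 2.60. Genotype calls numbered 0 over all genes and over the members in every edgeR fit, and with no replicate block (the date left out of the model) both counts were also 0. With DESeq2 they were 21 and 0. Sorting date calls were 0 over all genes under the alternatives that kept all libraries in edgeR, 403 with DESeq2, and 0 to 106 with 1 pair left out (106 without pair 2). Over the members they were 0, and 1 with DESeq2, which gave no adjusted p by date for 6 members. The cause of these shifts was not tested. Of 262 log2 fold changes of members under alternatives that kept all libraries, 11 changed sign. Without the replicate block these were Clec4e (-0.14), Lyz2 (-0.83), Lyz1 (-0.70), Cd14 (-0.17), Fcgr3 (-0.20) and Spi1 (-0.041). With DESeq2 they were Adgre1 (0.0017), Ctss (0.049), Lst1 (0.066) and Csf2rb (0.00046), and with no filter on low counts Csf2rb (0.0026). Leaving out 1 pair changed the sign in 41 of 105 values, for 33 of 35 members. Without pair 1, 2 members were higher and 33 lower in flt3L-/-, without pair 2 the counts were 12 and 23, and without pair 3 they were 32 and 3. In that last fit, with pairs 1 and 2, 5 members had an unadjusted p under 0.05 by genotype and 21 by date in edgeR, beside 261 and 701 of the 13475 genes, and 0 members were called. Averaged over pairs, the log2 ratio of the summed neutrophil members was 1.15 (-1.31 to 3.59 with 1 pair left out), and that of the macrophage and monocyte members -0.15 (-0.97 to 0.97). Ly6c2 and Mertk kept their sign with 1 pair left out, at 0.14 to 0.72 and 0.013 to 0.55. The lowest and highest log2 fold changes with 1 pair left out were, for the members that changed sign, S100a8 -1.26 to 3.37, S100a9 -1.09 to 3.56, Retnlg -1.38 to 3.26, Csf3r -1.23 to 2.77, Clec4d -1.42 to 3.01, Clec4e -1.57 to 2.27, Il1b -2.28 to 0.92, Lyz2 -1.88 to 2.27, Lyz1 -1.46 to 2.41, Adgre1 -1.25 to 1.25, Cd68 -1.05 to 0.67, Mrc1 -0.042 to 1.98, Cd163 -0.17 to 0.11, Trem2 -1.49 to 0.71, Ctss -1.96 to 1.66, Cd14 -1.17 to 1.6, Plac8 -2.47 to 1.03, Ms4a6c -2.07 to 1.47, Lst1 -1.49 to 1.35, Fcgr1 -1.05 to 0.33, Fcgr2b -1.54 to 0.43, Fcgr3 -1.16 to 1.58, Fcgr4 -0.23 to 1.66, Fcer1g -1.74 to 0.047, Tyrobp -1.77 to 0.52, Spi1 -1.70 to 2.0, Cebpa -0.60 to 0.076, Cebpb -1.53 to 0.11, Cybb -2.13 to 1.5, Ncf1 -1.80 to 1.53, Csf2ra -1.45 to 0.71, Csf2rb -0.63 to 0.76 and Laptm5 -1.51 to 0.081.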
